A study of Mus musculus with 20 samples.

Results

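In the mouse genes Steap1 and Gpr176, RNA was next to absent from sorted cardiac fibroblasts of uninjured hearts. Both genes had abundant RNA 3 days after myocardial infarction (MI). They were chosen by name, as 2 of the 25746 genes of the count table, because of their low counts before injury and their high counts after it. All 10 RNA libraries and the ATAC-seq peaks within each gene span plus 100 kb were used. The RNA levels against uninjured hearts, which chose the genes, are therefore given as a description, with no test. The day 3 and day 7 libraries entered that choice as well, so fold changes of either gene that involve these times are given as a description too. Only week 4 against week 2, which uses neither, has a test.

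The cells were eGFP+ fibroblasts of the Tcf21 lineage, sorted from digested hearts, with the gate set on eGFP- wild-type cells. The lineage label depended on a tamoxifen-inducible MerCreMer recombinase, and tamoxifen was injected at 75 mg/kg body weight per day for 5 days, which the uninjured and the infarcted groups share. Infarcted hearts were sampled at 4 times, day 3, day 7, week 2 and week 4, beside uninjured hearts. Each of the 5 groups has 2 RNA-seq and 2 ATAC-seq libraries, the second assay using the Tn5 transposase to tag open chromatin. RNA was taken from 10000 sorted cells per library. The sources used here do not give the age, sex and strain of the mice, the operation, or whether uninjured mice had a sham operation. They also do not tie libraries to animals: p-values reflect the spread among these libraries alone, and that spread may be a technical one.

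Steap1 encodes a member of the six-transmembrane epithelial antigen of the prostate (STEAP) family of haem-containing membrane proteins. Its relatives Steap2, Steap3 and Steap4 are metalloreductases, which pass electrons from NADPH across the membrane to ferric iron and cupric copper before these metals are taken up. STEAP1 binds haem but lacks the NADPH-binding domain of its relatives, and its human form is best known as a cell surface antigen of prostate cancer. Gpr176 encodes an orphan G-protein-coupled receptor of class A, that is, a receptor with no agreed ligand. In the mouse suprachiasmatic nucleus Gpr176 couples to the G protein Gz, lowers cyclic AMP and helps to set the pace of the circadian clock.

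Steap1 (ENSMUSG00000015652) lies on chromosome 5 at chr5:5736317-5749326 and Gpr176 (ENSMUSG00000040133) on chromosome 2 at chr2:118277110-118373419, both on the minus strand of GRCm38 (mm10). Their promoter windows are shown because both stood open in chromatin already before injury, when the genes gave almost no RNA. Each window runs 5′ to 3′ along the gene's own strand, from 250 bases before the RefSeq start to 50 bases after it (RefSeq, GRCm38.p6). The Steap1 window is chr5:5749268-5749567 and the Gpr176 window chr2:118373370-118373669. Capitals mark the matches to the 7 motifs searched.
Steap1 promoter: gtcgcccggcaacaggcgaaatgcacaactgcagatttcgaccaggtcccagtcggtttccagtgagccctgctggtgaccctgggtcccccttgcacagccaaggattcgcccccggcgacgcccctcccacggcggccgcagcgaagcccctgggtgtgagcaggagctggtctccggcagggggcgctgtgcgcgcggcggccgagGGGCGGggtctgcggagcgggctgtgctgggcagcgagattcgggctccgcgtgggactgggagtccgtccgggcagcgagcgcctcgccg
Gpr176 promoter: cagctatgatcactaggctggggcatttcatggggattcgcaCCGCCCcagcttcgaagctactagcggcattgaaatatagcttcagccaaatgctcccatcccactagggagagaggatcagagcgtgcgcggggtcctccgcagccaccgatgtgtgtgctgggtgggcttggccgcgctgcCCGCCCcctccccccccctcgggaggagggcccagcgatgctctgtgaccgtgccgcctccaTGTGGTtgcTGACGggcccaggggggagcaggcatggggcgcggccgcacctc

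Both windows are rich in G and C. The Steap1 window held 72.3% G and C and 33 CpG dinucleotides, and the Gpr176 window 66.3% and 20. Over the 32851 mouse promoter windows of the same length the medians were 52.7% and 7. The 7 motifs were searched on both strands, and positions count from the start, with no position 0. The GC box GGGCGG, a site bound by Sp1-type factors, occurred at 1 place in the Steap1 window, at -41 to -36. It occurred at 2 places in the Gpr176 window, on the reverse strand at -208 to -203 and at -65 to -60, and 35.7% of all windows hold it. The RUNX motif TGTGGT overlapped the Gpr176 start, from -3 to 3, and 16.8% of windows hold it. The cyclic AMP response element core TGACG lay just behind it, at 7 to 11, and 20.8% of windows hold it. No match was found in either window for the AP-1 motif TGANTCA (in 7.81% of windows), the TEAD motif GGAATG (14.7%), the CCAAT box CCAAT (37.4%) or the TATA box TATAAA (13.6%). None of the matches overlap each other. A match describes these letters and does not show that a factor binds.

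The RNA libraries held 16397211 to 21043997 counts, and the peak lists 63901 to 107798 peaks. The mean Pearson correlation of a library's log2 CPM with those of the other libraries, across 14968 genes (not independent replicates), was 0.836 to 0.878. The sample code of week 2 replicate 2 begins with B and those of the other RNA libraries with C, and its mean correlation was 0.858. All 10 listed fibroblast markers had counts in every RNA library, with Tcf21 itself at 7.81 to 36.2 CPM (counts scaled to 1000000 per library). The fibroblast markers summed to 60400 and 63000 CPM in uninjured hearts, 29500 and 18200 at day 3, and 33700 and 40200 at day 7. At week 2 the sums were 37300 and 28000 CPM, and at week 4 61800 and 57800. Against uninjured hearts, 3 of the 10 were called higher and 5 lower at day 3, beside 7.39% and 4.4% of all genes. In bulk libraries, a change in the number of cells that carry an RNA and a change in the RNA per cell cannot be told apart.

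Steap1 RNA was a short pulse. The uninjured libraries held 3 and 0 Steap1 counts (0.16 and 0 CPM). At day 3 there were 1164 and 1741 counts (69.1 and 96.5 CPM), at day 7 258 and 218 (12.7 and 13.1 CPM). At week 2 there were 36 and 4 counts (2 and 0.225 CPM), and at week 4 20 and 17 (1.24 and 0.828 CPM). Both day 3 libraries stood above both day 7 libraries, and those above all 4 later ones. The libraries of weeks 2 and 4 overlapped. Every library after MI was above both uninjured libraries, although week 2 replicate 2 held only 4 counts. The mean was 0.08 ± 0.113 CPM in uninjured hearts, 82.8 ± 19.4 at day 3, 12.9 ± 0.317 at day 7, 1.11 ± 1.25 at week 2 and 1.03 ± 0.289 at week 4 (SD, n = 2 each).

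Gpr176 RNA was a plateau. The uninjured libraries held 3 and 1 Gpr176 counts (0.16 and 0.0536 CPM). At day 3 there were 821 and 992 counts (48.7 and 55 CPM), and at day 7 1140 and 818 (56.1 and 49.3 CPM). At week 2 there were 646 and 615 counts (35.9 and 34.6 CPM), and at week 4 571 and 675 (35.3 and 32.9 CPM). The libraries of days 3 and 7 overlapped, as did those of weeks 2 and 4, and each library of the first pair of times stood above each library of the second pair. All of them stood far above both uninjured libraries. The mean was 0.107 ± 0.0752 CPM in uninjured hearts, 51.9 ± 4.42 at day 3, 52.7 ± 4.79 at day 7, 35.2 ± 0.89 at week 2 and 34.1 ± 1.73 at week 4 (SD, n = 2 each).

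**Figure D1:**
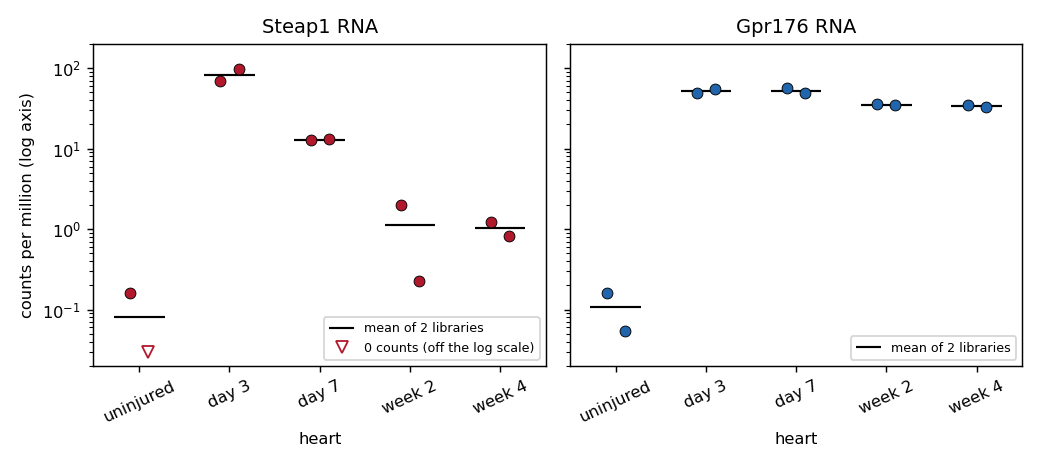
RNA of Steap1 (left) and Gpr176 (right) in CPM on a log axis, by group, with 1 point per library and a bar at the mean of 2 libraries; the open triangle marks an uninjured library with 0 Steap1 counts. Steap1 stood at 1.03 CPM at week 4, against 82.8 CPM at day 3, while Gpr176 stood at 34.1 CPM at week 4, against 51.9 CPM at day 3.

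The summed uninjured counts were so few, 3 for Steap1 and 4 for Gpr176, that ratios to them carry wide counting intervals. Steap1 was 1040 times its uninjured level at day 3 (95% exact counting interval 355 to 5040) and 161 times at day 7 (54.7 to 783). It was 13.9 times that level at week 2 (4.44 to 70.4) and 12.6 times at week 4 (3.98 to 63.8). Gpr176 was 486 times its uninjured level at day 3 (190 to 1790) and 496 times at day 7 (194 to 1820). It was 330 times that level at week 2 (128 to 1210) and 318 times at week 4 (124 to 1170). The reads were amplified by PCR without molecular identifiers, so these intervals cover counting error only, and not the spread between animals.

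In rank terms the genes moved apart with time. By fitted fold change against uninjured hearts, Steap1 ranked 16 of 14968 genes from the top at day 3, 222 at day 7, 451 at week 2 and 411 at week 4. Gpr176 ranked 59, 73, 53 and 21 at the same times. Its fitted fold was 456 at day 3 and 300 at week 4, so its better rank at week 4 was not a higher fold. Genes with next to no uninjured counts can rank high on few counts, so these fold ranks are rough. Within the libraries, Steap1 exceeded 79.8% and 85.4% of the tested genes in CPM at day 3 and 17.9% and 15.7% at week 4, against 6.4% and 0% in uninjured hearts. Gpr176 exceeded 73.6% and 76.5% at day 3 and 67% and 65.3% at week 4, against 6.4% and 7.7% in uninjured hearts. These ranks are on the CPM scale, which is not corrected for gene length.

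Few genes shared this starting point and this height. Of the 674 tested genes with at most 4 counts in the uninjured libraries together, 2 had a mean of at least 51.9 CPM at day 3, and these were Steap1 and Gpr176. Both bounds were set by the genes themselves, so the count describes how far apart they stand and tests nothing. It rested on uninjured replicate 1: without that library 18 genes met the same bounds.

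Between times after MI, Steap1 had a lower fitted level at the later time in each comparison that involved day 3 or day 7. For week 4 against day 3 its log2 fold change in edgeR's fit of all 10 libraries was -6.32 ± 0.88 (SE; 95% interval -8.25 to -4.40), and -6.63 to -6.02 with a library left out. In that comparison 13.4% of the 14968 genes passed at an adjusted p under 0.05, 5.84% higher and 7.52% lower. For week 4 against day 7 it was -3.65 ± 0.79 (SE; 95% interval -5.38 to -1.91), and -3.95 to -3.36 with a library left out, where 2.42% of genes passed, 0.895% higher and 1.52% lower. These values start from day 3 and day 7 libraries for whose high counts the gene was chosen, so nothing is read from the shares of genes that passed.

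The steps in between were smaller. For day 7 against day 3, Steap1 had a log2 fold change of -2.68 ± 0.73 (SE; 95% interval -4.27 to -1.09), where 1.38% of genes passed (0.822% higher, 0.555% lower). For week 2 against day 7 it was -3.53 ± 0.79 (SE; 95% interval -5.25 to -1.81), where 0.648% of genes passed (0.194% higher, 0.454% lower). The second value depended on which week 2 library was kept: it was -5.76 without week 2 replicate 1 and -2.68 without week 2 replicate 2. Week 4 and week 2 were not told apart in edgeR's quasi-likelihood test, at -0.12 ± 0.79 (SE; 95% interval -1.83 to 1.60; adjusted p of 0.987), where 0.608% of genes passed (0.454% higher, 0.154% lower). Without week 2 replicate 1 that value turned to 2.13, and without week 4 replicate 2 to 0.14, with adjusted p of 0.194 to 1 over all alternatives.

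The intervals of Gpr176 between times after MI all included 0. Its log2 fold change was 0.02 ± 0.31 (SE; 95% interval -0.65 to 0.70) for day 7 against day 3, and -0.60 ± 0.31 (interval -1.29 to 0.08) for week 4 against day 3. The values were -0.58 ± 0.31 for week 2 against day 7 (interval -1.26 to 0.10) and -0.63 ± 0.31 for week 4 against day 7 (-1.31 to 0.05). For week 4 against week 2 the value was -0.05 ± 0.31 (-0.73 to 0.63), with an adjusted p of 0.986 in edgeR and of 0.951 to 1 over the alternatives. The intervals leave room for Gpr176 at week 4 to have been anywhere between slightly above its day 3 level and less than that level by 1.29 on the log2 scale.

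**Figure D2:**
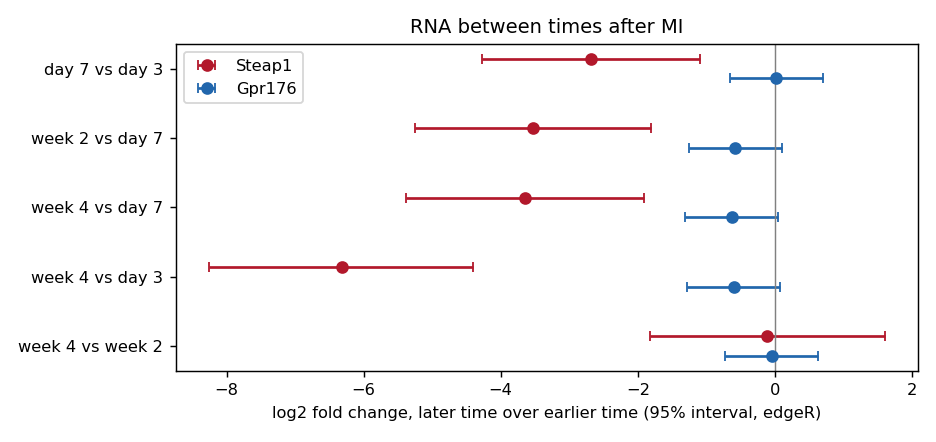
Log2 fold changes of Steap1 and Gpr176 between times after MI (later over earlier), with 95% intervals from edgeR's fit of all 10 RNA libraries. The intervals of Steap1 lie below 0 in every comparison but week 4 against week 2, and those of Gpr176 include 0 in all 5. Intervals are not adjusted for the number of genes. Except for week 4 against week 2, they are a description, since day 3 and day 7 libraries entered the choice of the genes.

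Set against each gene's own day 3 mean, the difference in course shows without comparing the genes' levels. Steap1 stood at 15.3% and 15.9% of that mean in the day 7 libraries, 2.41% and 0.272% at week 2, and 1.49% and 1% at week 4. Gpr176 stood at 108% and 95.1% at day 7, 69.1% and 66.7% at week 2, and 68.1% and 63.4% at week 4. For every 100 Gpr176 counts there were 142 and 176 Steap1 counts at day 3, 22.6 and 26.7 at day 7, 5.57 and 0.65 at week 2, and 3.5 and 2.52 at week 4. These count ratios are not corrected for gene length, and only their change between libraries can be read. Every day 3 ratio was above every day 7 ratio, and those above every later one. No test was run on the ratio.

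For the counts of called genes against uninjured hearts that follow, 11.8% of all genes passed at day 3 (7.39% higher, 4.4% lower) and 7.15% at day 7 (4.39% higher, 2.76% lower). At week 2 1.89% passed (1.44% higher, 0.454% lower), and at week 4 2.32% (1.85% higher, 0.474% lower).

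Among the metalloreductase relatives of Steap1, none shared its silence before injury. Steap2, which lies next to Steap1, had 60.8 and 50.2 CPM at day 3, against 23.1 and 10.1 CPM in uninjured hearts. Its log2 fold change was 1.74 ± 0.52 (SE), with an edgeR adjusted p of 0.0498, at the edge of the threshold. That call was lost without uninjured replicate 2, day 3 replicate 1, day 3 replicate 2, week 4 replicate 1 or week 4 replicate 2 (adjusted p of 0.0612 to 0.328 in edgeR). At day 7, week 2 and week 4 Steap2 was not called against uninjured hearts, with log2 fold changes of 0.92, 1.13 and 0.83.

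Steap4, linked to inflammation and metabolism in fat tissue, had 248 and 161 CPM at day 3, against 240 and 142 CPM in uninjured hearts, with a log2 fold change of 0.10 ± 0.30 (SE). It then ran below its day 3 level, at 51.4 and 53.3 CPM at week 4. Week 4 was lower than day 3 by a log2 fold change of -1.97 ± 0.31 (SE; adjusted p of 0.00198 in edgeR) and lower than uninjured hearts by -1.87 ± 0.31 (adjusted p of 0.00787 in edgeR). The second call was lost without week 4 replicate 1 (adjusted p of 0.0531 in edgeR). Steap3, which reduces iron in the transferrin cycle of red cell precursors, had 217 and 114 CPM at day 3 and 321 and 263 CPM at week 4, against 299 and 229 CPM in uninjured hearts. No comparison called Steap3, and its lowest library was week 2 replicate 2, at 46 CPM.

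Of 33 tested genes of iron and copper handling, 4 rose and 3 fell at day 3 against uninjured hearts, with a median log2 fold change of 0.15, beside -0.02 over all genes tested. Slc39a14 (ZIP14), a zinc and iron importer, had 29 ± 2.28 CPM at day 3 against 5.26 ± 1 CPM in uninjured hearts (log2 fold change 2.46 ± 0.44 SE). The copper importer gene Slc31a1 had 203 ± 16.3 against 72.4 ± 16 CPM (1.49 ± 0.28). Its relative Slc31a2, which takes part in copper release from lysosomes, had 34.2 ± 8.11 against 78.3 ± 18.4 CPM (-1.20 ± 0.29). Cp, the multicopper ferroxidase ceruloplasmin, had 270 ± 21.3 against 650 ± 22.4 CPM (-1.27 ± 0.20), and was lower at all 4 times. Its calls at week 2 and week 4 were lost without either uninjured library and without either library of the time itself (adjusted p of 0.0562 to 0.216 in edgeR), and those at days 3 and 7 held. The day 3 calls of Slc39a14, Slc31a1 and Slc31a2 were lost without uninjured replicate 2, and that of Slc31a2 also without day 3 replicate 1. The count of 7 fell to 4 without uninjured replicate 1, to 1 without uninjured replicate 2 and to 4 without day 3 replicate 2. By week 4 against uninjured hearts 1 gene of the list fell, Cp, and none rose.

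Of the genes of Gz signalling, Gnaz and Rgs20 had few counts in these cells, and both were named after their values were seen. Rgs19, given below, was not scarce, at 24.4 to 75.1 CPM. Gnaz, which encodes the α subunit of Gz, had 51 and 100 counts in uninjured hearts (2.72 and 5.36 CPM) and 2 and 49 counts at day 3 (0.119 and 2.72 CPM). At day 7 it had 17 and 0 counts, at week 2 6 and 44, and at week 4 36 and 94. The libraries of a group differed widely and no comparison called it. Rgs20, a regulator that speeds up GTP hydrolysis by Gz, had at most 55 counts in any library.

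Of the other regulators of this branch, Rgs16, which acts on inhibitory G proteins and serves the clock in the mouse suprachiasmatic nucleus, had 4.96 and 4.13 CPM in uninjured hearts and 15.2 and 12 CPM at day 3. At day 7 it had 33.8 and 40 CPM, at week 2 28.4 and 22.4, and at week 4 28.2 and 26.7. All 8 libraries after MI were above both uninjured ones, and the later 6 above both day 3 libraries. Its log2 fold changes against uninjured hearts were 1.58 ± 0.38, 3.02 ± 0.40, 2.48 ± 0.39 and 2.59 ± 0.40 (SE) in time order, with edgeR adjusted p of 0.0189, 0.000853, 0.00512 and 0.00497. The day 3 call was lost without either uninjured or either day 3 library (adjusted p of 0.0522 to 0.195 in edgeR). Without uninjured replicate 2 the week 2 and week 4 calls were lost too (adjusted p of 0.0761 and 0.0709 in edgeR), while the day 7 call held with any library left out.

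Of 30 tested genes of Gz and cyclic AMP signalling, 2 rose (Rgs16 and Rgs19) and 1 fell (Gnai1) at day 3, with a median log2 fold change of -0.70 beside -0.02 over all genes. These 3 are 10% of the list, beside 11.8% of all genes, so the list was called about as often as genes in general. Rgs19, a regulator of inhibitory G proteins, had 75.1 and 71.8 CPM at day 3, against 24.4 and 28.2 CPM in uninjured hearts (log2 fold change 1.48 ± 0.36 SE). Gnai1, an inhibitory α subunit that lowers cyclic AMP as Gz does, had 13.5 ± 0.441 CPM at day 3 against 40.3 ± 2.07 CPM in uninjured hearts (-1.58 ± 0.47). All 3 calls were lost without uninjured replicate 1, without uninjured replicate 2 and without day 3 replicate 2. At day 7 Prkar2a, a regulatory subunit of protein kinase A, had 14.5 ± 5.02 CPM against 36.5 ± 1.73 CPM in uninjured hearts (-1.33 ± 0.36; adjusted p of 0.0453 in edgeR). Leaving out uninjured replicate 1 or 2, day 7 replicate 2, or week 4 replicate 1 or 2 ended this call, as did a fit of the 2 groups alone.

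Few clock genes were called at day 3. Of 18 tested, 3 fell and none rose, which is 16.7% of the list. Over all genes 11.8% were called, and 4.4% were called lower. The list's median log2 fold change was -0.45, beside -0.02 over all genes. Rora, a nuclear receptor that activates the clock gene Arntl (Bmal1), had 68 ± 36.3 CPM at day 3 against 209 ± 48.7 CPM in uninjured hearts (-1.62 ± 0.35 SE). Arntl had 39.4 ± 9.12 against 88.9 ± 2.64 CPM (-1.17 ± 0.31), and Nr1d2, a repressor of Arntl, 44.4 ± 10.1 against 121 ± 23.2 CPM (-1.45 ± 0.43). The edgeR adjusted p of Nr1d2 was 0.0487, at the edge of the threshold. Each of the 3 calls was lost without uninjured replicate 2 and without day 3 replicate 2. Those of Arntl and Nr1d2 were also lost without uninjured replicate 1 and without day 3 replicate 1. Leaving out either week 4 library ended the call of Nr1d2 too. At week 4 Arntl had 192 ± 53.4 CPM, higher than at day 3 (log2 fold change 2.28 ± 0.32; adjusted p of 0.00113 in edgeR). The sources used here do not give the time of day at which hearts were taken. Its part in the clock genes' levels was not tested.

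Of 51 other orphan class A receptors listed, 30 had enough counts to be tested, and 1 of them, Gpr39, rose at day 3 (3.33% of the list, beside 11.8% of all genes). Gpr39, a receptor that responds to zinc, had 9.25 ± 3.36 CPM in uninjured hearts, 75.9 ± 34.6 at day 3, 41.8 ± 5.78 at day 7, 52.1 ± 3.58 at week 2 and 31.9 ± 2.13 at week 4 (SD, n = 2 each). Its log2 fold changes were 3.04 ± 0.40, 2.18 ± 0.38, 2.49 ± 0.39 and 1.78 ± 0.38 (SE), called at all 4 times. The week 4 call was lost without either uninjured or either week 4 library (adjusted p of 0.0509 to 0.188 in edgeR), and the other 3 held with any library left out. The list's median log2 fold change at day 3 was -0.42. A second member was called at day 3 without day 3 replicate 1.

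Genes known from activated fibroblasts were listed with earlier results of these data known, so their counts are a description and test nothing. Of 20 tested, 16 rose at day 3, 17 at day 7, 14 at week 2 and 15 at week 4 against uninjured hearts, and none fell. Cthrc1, a secreted protein of collagen-producing fibroblasts, had 1480 ± 231 CPM at day 3 against 12.9 ± 3.73 CPM in uninjured hearts. Between times the list did not stay level: 7 of its genes were lower and 2 higher at week 4 than at day 3. Of all genes, 7.52% were lower and 5.84% higher in that comparison. Cthrc1 was lower (log2 fold change -2.36 ± 0.28 SE), as was Postn (-1.43 ± 0.31), a matricellular protein gene. The call of Postn was lost without week 4 replicate 2 (adjusted p of 0.0748 in edgeR). Fn1, the fibronectin gene (-0.53 ± 0.22), and Lox, which encodes the crosslinking enzyme lysyl oxidase (-0.38 ± 0.27), were not called there.

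The genes with the nearest courses differed between Steap1 and Gpr176. Likeness was measured as the root mean square difference of log2 CPM profiles, each centred on its mean over the 10 libraries, among 10039 genes with a mean of at least 2. Nearest to Steap1 were Pclaf (1.15), a PCNA-binding protein gene, Tnc (1.27), the tenascin C gene, Ccl9 (1.33), a chemokine gene, Cdca3 (1.38), a mitotic entry gene, Hist1h2ap (1.38), a histone H2A gene, and Adam12 (1.38), a metalloprotease gene. The median over all genes was 3.26. The choice was not firm: without uninjured replicate 1 none of these 6 was among the nearest 6, without week 4 replicate 1 or week 4 replicate 2 3 were, and by Pearson correlation 1 was (Adam12). Pclaf had 0.828 ± 0.488 CPM in uninjured hearts, 188 ± 29.3 at day 3, 33.4 ± 5.92 at day 7, 3.51 ± 3 at week 2 and 2.16 ± 0.253 at week 4. Tnc, at 1040 ± 266 CPM at day 3, still stood at 75.2 ± 4.81 CPM at week 4, against 4.35 ± 3.95 CPM in uninjured hearts.

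Nearest to Gpr176 were Kif26b (0.841), a kinesin family gene, Cyth4 (0.926), an ARF exchange factor gene, Cthrc1 (1.06), P4ha3 (1.23), a collagen prolyl hydroxylase subunit gene, Ccn4 (1.27), a matricellular protein gene, and Ddah1 (1.27), an enzyme of methylarginine breakdown. The median over all genes was 3.13. Without uninjured replicate 1, and by Pearson correlation, 2 of these 6 remained among the nearest 6. Kif26b, with 3 counts in the uninjured libraries together, had 19.4 ± 6.72 CPM at day 3, 51.6 ± 22.1 at day 7, 32.2 ± 5.15 at week 2 and 13.1 ± 4.89 at week 4. Of the genes nearest to either, Tnc, Adam12, Kif26b, Cthrc1, Ccn4 and Ddah1 are also on the activated fibroblast list. That list was chosen with earlier results of these data known, so nothing is read from the overlap. P4ha3 had 2.97 ± 0.177 CPM in uninjured hearts, 81.2 ± 7.66 at day 3, 112 ± 28.4 at day 7, 75.6 ± 28.6 at week 2 and 58.3 ± 10.4 at week 4. From Steap1 to Gpr176 the distance was 2.5, which put Gpr176 at rank 256 from Steap1.

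**Figure D3:**
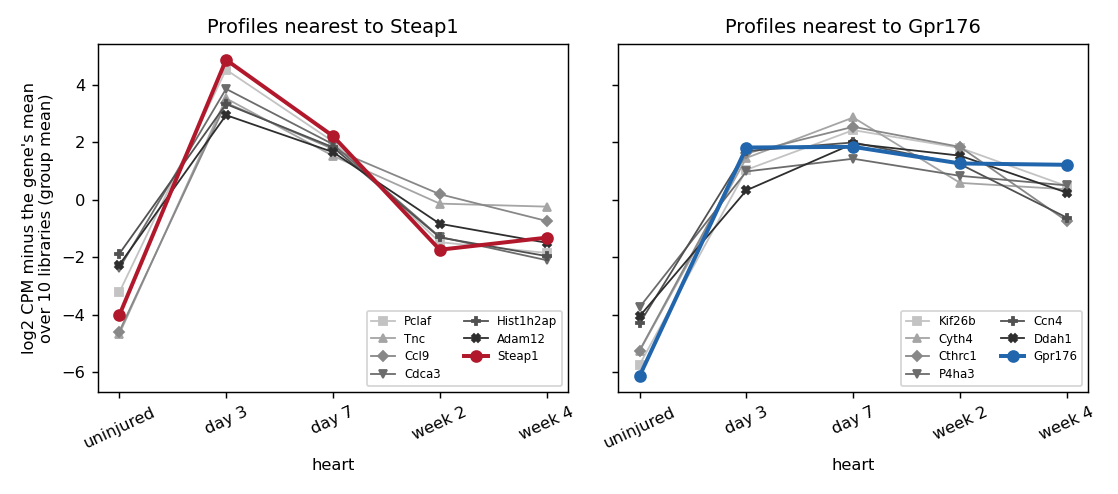
Centred log2 CPM (group means) of Steap1 and Gpr176, in colour, with the 6 genes nearest to each in grey. The neighbours of Steap1 peak at day 3, as it does, and those of Gpr176 stand higher at day 7 than at day 3, where Gpr176 itself was level.

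Markers of other cell types also changed in these libraries, and their part in the results for Steap1 and Gpr176 was not tested. All 20 macrophage and monocyte markers had counts in at least some libraries, and their sum was 79.3 and 93.8 CPM in uninjured hearts, 779 and 1300 at day 3, 2040 and 3630 at day 7, 576 and 662 at week 2, and 193 and 295 at week 4. Of these 20, 15 were called higher at day 3 and 18 at day 7. Mesothelial and epicardial markers (10 listed) summed to 68.7 and 62 CPM in uninjured hearts, 254 and 175 at day 3, 59.7 and 29.5 at day 7, 211 and 65.8 at week 2, and 31.7 and 21.9 at week 4. Of 9 tested, 1 rose at day 3. Since STEAP1 is named after epithelia, epithelial markers were summed as well. The 13 listed summed to 2.45 and 2.41 CPM in uninjured hearts, 6.94 and 26.5 at day 3, 12.1 and 2.41 at day 7, 30.5 and 9.62 at week 2, and 4.83 and 2.83 at week 4. The libraries of a time differed widely, and none of the 8 tested was called. The keratin genes Krt8, Krt18 and Krt7 reached 9.53, 9.14 and 7.16 CPM at most, Epcam 1.11 CPM, and Krt5 and Esrp1 were at 0 in all 10 libraries.

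Endothelial markers summed to 715 and 610 CPM in uninjured hearts, 350 and 269 at day 3, 792 and 986 at day 7, 637 and 604 at week 2, and 740 and 678 at week 4. Against uninjured hearts 6 of 12 were lower at day 3, and 5 were higher and 1 lower at day 7. Against day 3, 9 of 12 were higher at day 7, beside 0.822% of all genes, and 7 at week 4, beside 5.84%. Pericyte and smooth muscle markers gave 106 to 1220 against 926 and 408 CPM, and cardiomyocyte markers 40.5 to 178 against 157 and 191 CPM. Schwann cell and neuron markers gave 36.4 to 172 against 109 and 199 CPM, and lymphocyte and granulocyte markers 0.506 to 27.7 against 0.48 and 0.321 CPM.

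In chromatin, the promoters of both genes carried a peak in all 10 lists, the uninjured ones included. The Steap1 promoter region was chr5:5747744-5750966. Its peak had a fold enrichment, the authors' own value per peak, of 26.6 to 48.8 after MI and of 33.7 and 35 in the uninjured lists. The Gpr176 promoter region was chr2:118371605-118376613, with 37.3 to 59.5 after MI and 30.0 and 28.8 in the uninjured lists. Within their own lists, the Steap1 peak exceeded 85.1% and 86.7% of all uninjured peaks in fold, and the Gpr176 peak 82.8% and 83.4%. The lists differ in length and depth, so these values are not compared between lists. The GC boxes and CpG-rich letters printed above lie inside these regions.

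An open promoter was not the rule among tested genes as quiet as these before injury. Genes this quiet passed the count filter only through libraries after MI, so genes silent throughout are left out. Of 414 tested genes with at most 4 uninjured counts and a RefSeq promoter, 34.3% had a peak within 1 kb of the start in both uninjured lists. Of 11027 tested genes with a RefSeq promoter, 89.3% had. Steap1 and Gpr176 belong to the open ones among these quiet tested genes. This comparison was chosen after the data were seen and is given without a test.

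Around the genes, more sequence was covered by peaks after MI. For Steap1, the window chr5:5636317-5849326 held 3 and 5 peaks over 5389 and 6837 bases in the uninjured lists. It held 11 and 10 peaks over 18110 and 19516 bases at day 3, and 5 and 7 peaks over 7785 and 9339 bases at week 4. Per 1000000 peak-covered bases of a list, which allows for lists of different extent, the window took 48.7 and 57.9 bases in uninjured hearts, 117.9 and 112.3 at day 3, 90.4 and 86.0 at day 7, 78.1 and 80.6 at week 2, and 66.2 and 84.5 at week 4. All 8 lists after MI were above both uninjured ones.

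For Gpr176, the window chr2:118177110-118473419 held 6 and 7 peaks over 8083 and 10349 bases in the uninjured lists, 22 and 18 peaks over 25769 and 30255 bases at day 3, and 10 and 10 peaks over 12833 and 11556 bases at week 4. On the same scale it took 73.1 and 87.7 bases in uninjured hearts, 167.7 and 174.2 at day 3, 159.0 and 152.5 at day 7, 139.0 and 133.3 at week 2, and 109.1 and 104.5 at week 4. Here too all 8 lists after MI were above both uninjured ones, and the later the time, the lower the pair of values. The sample codes of the uninjured and day 3 lists, day 7 replicate 1 and week 2 replicate 1 begin with A, and those of the others with B. Among the lists with A, those after MI took 78.1 to 117.9 around Steap1, against 48.7 and 57.9 in uninjured hearts, and 139.0 to 174.2 around Gpr176, against 73.1 and 87.7.

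The Steap1 window took 89.5 ± 17.4 bases per 1000000 after MI (SD, n = 8) and 53.3 ± 6.5 in uninjured hearts (SD, n = 2). The difference was 36.2, with p = 0.0444 in a two-sided exact permutation test over 45 splits, the smallest p this design can give. The Gpr176 window took 142.4 ± 25.8 after MI (SD, n = 8) and 80.4 ± 10.3 in uninjured hearts (SD, n = 2), a difference of 62.0 with the same smallest p of 0.0444 in the exact permutation test. A shift of this kind was common: 10.0% of 25656 gene windows were higher in all 8 lists after MI than in both uninjured lists, and 8.19% were lower in all 8. The difference was smaller in 89.8% of gene windows than around Steap1 and in 96.0% than around Gpr176. With any list left out the test could no longer reach 0.05, and the differences were 31.6 to 40.8 for Steap1 and 54.7 to 69.3 for Gpr176.

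**Figure D4:**
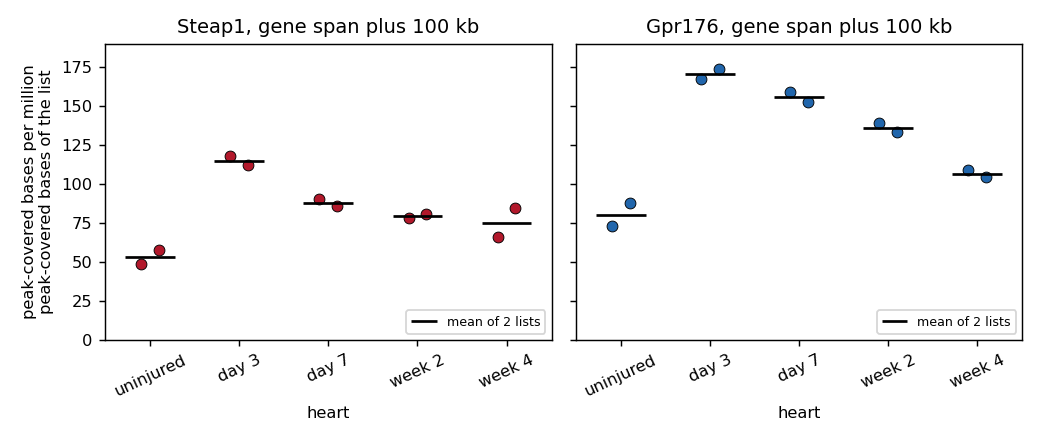
Peak-covered bases within each gene span plus 100 kb, per 1000000 peak-covered bases of the list, by group, with 1 point per ATAC-seq list and a bar at the mean of 2 lists. All lists after MI lie above the uninjured lists, with day 3 the highest around both genes.

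Merging the 10 lists gave 143319 regions, of which 11 fell in the Steap1 window and 25 in the Gpr176 window. A region was counted as gained at a time when both lists of that time had a peak there and neither uninjured list did, and as lost in the opposite case. Around Steap1, 4 of 11 regions were gained at day 3 (36.4%), beside 17.2% of all regions. At day 7, week 2 and week 4 there was 1 each (9.09%), beside 9.29%, 5.08% and 2.76%. Around Gpr176, 10 of 25 were gained at day 3 (40.0%), 6 at day 7 and 6 at week 2 (24% each), and 3 at week 4 (12%). No region was lost around Steap1, and around Gpr176 1 was lost at week 4, and none earlier. Of all regions 1.09% were lost at day 3, 2.37% at day 7, 2.66% at week 2 and 3.68% at week 4. Several of these counts are small and moved with a stricter peak threshold or a list left out. With a list left out, the day 3 counts were 4 to 6 around Steap1 and 10 to 14 around Gpr176. Around Steap1, the day 7 count was 3 without uninjured replicate 2 and 2 without either day 7 list. The week 2 count was 3 without uninjured replicate 2 and 2 without week 2 replicate 2. Without week 4 replicate 1 the week 4 counts were 2 around Steap1 and 5 gained and 2 lost around Gpr176.

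None of the regions gained around Steap1 lay in Steap1 itself. The 3 with the highest fold lay within its neighbour Steap2, 58.9 to 63.3 kb from the Steap1 start. Region chr5:5684407-5687679 had folds of 9.6 and 9.38 at day 3, 4.29 and 4.47 at day 7 and 2.99 in week 2 replicate 1, and no peak in any other list. Region chr5:5688240-5689483 had 7.2 and 7.75 at day 3, with peaks of 3.49 in day 7 replicate 1 and 3.27 in week 4 replicate 2. Region chr5:5690038-5690839 had 4.8 and 5.3 at day 3 and no peak in any other list. They lie side by side, just behind the Steap2 promoter region chr5:5691365-5696011, which had a peak in all 10 lists. The other day 3 region, chr5:5658716-5659576, lay in Cfap69, a cilium and flagellum gene. The region gained at weeks 2 and 4, chr5:5701727-5702721, lay between Steap2 and Steap1, 47.1 kb from the Steap1 start. A region with a peak in 1 uninjured list does not count as gained. Such a region, chr5:5647459-5650487 in Cfap69, had higher folds than those gained, 35.7 and 38.3 at day 3. It had 3.6 in uninjured replicate 2 and no peak in uninjured replicate 1.

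Around Gpr176, 5 of the 10 regions gained at day 3 lay inside the gene and 5 outside it. Gpr176 fills 96310 of the 296310 bases of its window, and Steap1 13010 of 213010, so the positions are not compared between the genes. Of the 3 regions gained at all 4 times, 1 lay inside Gpr176. Region chr2:118286324-118289537, in Gpr176 85.5 kb from its start, had folds of 18.2 and 19.0 at day 3, 9.93 and 5.46 at day 7, 6.97 and 4.25 at week 2 and 3.52 in week 4 replicate 2. Region chr2:118296884-118299063, in Gpr176 75.4 kb from its start, had a peak in all 8 lists after MI and in neither uninjured list, with folds of 12.5 and 9.59 at day 3 and 3.2 and 4.03 at week 4. The third by fold, chr2:118443510-118444780, lay 70.7 kb before the start, in Eif2ak4, with 7.92 and 8.97 at day 3 and 4.03 in day 7 replicate 1. Of the 25 regions, 3 had a peak in all 8 lists after MI and in no uninjured list: the second of these and chr2:118178775-118180553 and chr2:118262743-118264228, of which the first lies in Fsip1. Region chr2:118255876-118257833, in Fsip1, did not count as gained because of a peak of 4.89 in uninjured replicate 2. It had 26.6 and 28.1 at day 3. The folds rank peaks within a list and give no change between lists.

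**Figure D5:**
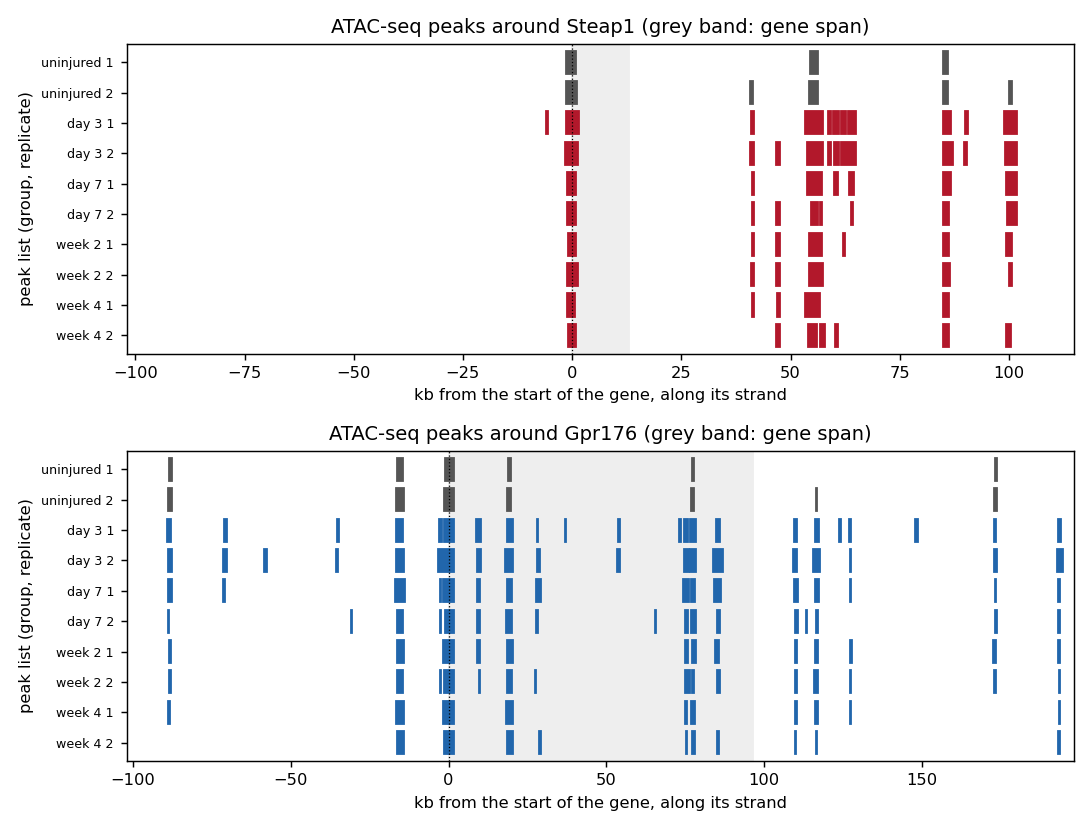
Peaks of the 10 ATAC-seq lists around Steap1 (top) and Gpr176 (bottom), by distance in kb from the start of the gene along its strand, with 1 row per list and the gene span in grey. Both starts carry a peak in every list, the day 3 peaks gained near Steap1 sit 58.9 to 90.2 kb beyond its start, and those of Gpr176 lie in and around the gene.

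Of the other genes of these windows, only Steap2 was called against uninjured hearts, at day 3. Besides Steap2, the Steap1 window overlapped Cfap69, with 0.89 and 3.44 CPM at day 3 and 1.65 and 5.04 CPM in uninjured hearts, and the predicted gene Gm43219, which had no count. The Gpr176 window overlapped Fsip1, with 0 counts in both uninjured libraries and at most 22 in any other, and Eif2ak4, which encodes the stress kinase GCN2. Eif2ak4 had 14.7 and 4.1 CPM at day 3 and 7.55 and 9.31 CPM at week 4, against 5.54 and 8.15 CPM in uninjured hearts. No comparison called Cfap69, Fsip1 or Eif2ak4. Their log2 fold changes at day 3 against uninjured hearts were -0.63 ± 1.78, 6.15 ± 3.85 and 0.45 ± 0.89 (SE). With errors this wide, the fits cannot say whether these 3 genes changed. The sources used here do not give the strand counted, so reads of overlapping transcripts on the other strand cannot be told apart from those of the genes named.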

How the data were processed

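RNA-seq and ATAC-seq libraries of sorted Tcf21-lineage cardiac fibroblasts were grouped by the sample labels. For RNA, the authors deposited expected counts for Ensembl genes (11.7% of values have decimals), not scaled between libraries, and the sources used here do not name the program behind them. For ATAC-seq, the authors deposited peaks called library by library, with a fold enrichment (a ratio), the −log10 of p and q, and a score for each peak. The submitters' processing notes name Trim Galore 0.6, FastQC, STAR 2.5.3a, DESeq2, Bowtie2 2.3 and MACS2, with mm10 and GRCm38 as builds, and give none a role. The sources used here do not give the thresholds of the peak calls.

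Counts were rounded and fitted in R 4.3.3 with edgeR 4.0.16 (TMM, filterByExpr by group, 14968 genes kept, robust quasi-likelihood fit of all 10 libraries, group as the only factor). P-values were adjusted by Benjamini-Hochberg over all genes of a contrast, with a threshold of 0.05, and the test was checked on simulated data. CPM used TMM library sizes, and profiles used log2 CPM with a prior count of 2. Ratios to uninjured hearts used summed counts with exact intervals. Standard chromosomes were used for peaks, and 1 shared base counted as overlap. Named genes were Steap1 and Gpr176, the STEAP family, genes within 100 kb, the 6 nearest profiles, and up to 4 called members per list; of the gained or lost regions, the 3 of highest mean fold in each window. Further regions, and Gnaz and Rgs20, were named after their values were seen. The members, lists and rules were chosen with earlier results of these data known. RefSeq promoters matched both genes; sequences of other regions were not used here. DESeq2 1.42.0 served as an alternative. Fold changes of either gene that use day 3 or day 7 libraries are printed without p-values, since those libraries entered the choice of the genes. Replicate numbers did not pair the libraries.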

Additional observations from a re-analysis of the deposited data

How the results depend on the processing

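The direction of Steap1 at week 4 against day 3 was kept under every alternative run. Values that use day 3 or day 7 libraries are given as sizes alone and test nothing, since these libraries entered the choice of the gene. The log2 fold change of Steap1 at day 7 against day 3 was -2.64 without the low count filter and -2.68 with DESeq2. With only the 2 groups compared it was -2.66. At week 2 against day 7 it was -3.51 without the filter and -3.53 with DESeq2. At week 4 against day 7 it was -3.65 with only the 2 groups compared. With each library left out in turn, these 3 values were -2.90 to -2.40, -5.76 to -2.68 and -3.95 to -3.36. Week 4 against week 2 turned to 0.04 with the replicate block and was -0.96 to 2.13 with a library left out, and Gpr176 at day 7 against day 3 was -0.07 to 0.14. The cause was not tested. Replicate numbers did not pair the libraries (correlations of deviations -0.0181 to 0.0288, 0 of 10 pairs over 0.1), and the block reversed no other value of either gene.

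Against uninjured hearts, fitted log2 fold changes with a library left out were 8.92 to 13.54 for Steap1 at day 3, 6.26 to 10.87 at day 7, 1.43 to 7.35 at week 2 and 2.62 to 7.23 at week 4. For Gpr176 they were 8.24 to 9.74, 8.28 to 9.77, 7.73 to 9.19 and 7.67 to 9.14. The highest Steap1 values rest on an uninjured library with 0 counts.

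Counts of genes called between times depended on the tool. For day 7 against day 3 the count was 206, and 814 without the filter, 976 with DESeq2, 119 with 2 groups and 31 to 418 with a library left out. For week 2 against day 7 it was 97, and 1029, 1049, 6 and 4 to 424. For week 4 against day 7 it was 362, and 1306 without the filter, 1308 with DESeq2 and 32 to 578 with a library left out. For week 4 against day 3 it was 2000, and 3135 with DESeq2 and 691 to 2353 with a library left out. For week 4 against week 2 it was 91, and 952 without the filter, 907 with DESeq2, 0 with 2 groups and 3 to 702 with a library left out.

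List counts at day 3 with a library left out were 0 to 1 (STEAP family), 1 to 7 (iron and copper), 0 to 4 (Gz and cyclic AMP), 0 to 3 (clock) and 1 to 2 (orphan receptors). Without the filter they were 2, 6 and 6 for the STEAP, Gz and clock lists, and with DESeq2 5 for the clock and 3 for the orphan receptors.

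ATAC-seq window differences were 31.6 to 40.8 (Steap1) and 54.7 to 69.3 (Gpr176) with a list left out. Gained Steap1 regions were 1 to 3 at day 7, 1 to 3 at week 2 and 1 to 2 at week 4, and at week 4 3 to 5 were gained and 1 to 2 lost around Gpr176. With peaks of −log10 q of 5 or more, 2 Steap1 regions were gained at day 7 and 0 at week 4, 3 Gpr176 regions at week 2 and 1 at week 4, and 1 was lost at day 7. With the stricter overlap, 2 Steap1 regions were gained at week 2 and 2 Gpr176 regions lost at week 4.

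The 6 nearest profiles depended on the measure: by Pearson correlation 1 of the 6 for Steap1 (Adam12) and 2 for Gpr176 (Kif26b, P4ha3) were shared. Without uninjured replicate 1, 0 and 2 were, and without either week 4 library 3 for Steap1. Runs with a library left out for the nearest profiles, the region counts and the quiet genes, all alternatives of the nearest genes that are on no list's named set, and those of the list genes beyond days 3 and 7 against uninjured hearts, were chosen after the data were seen; those of the STEAP family were not.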
